A study of Homo sapiens with 30 samples.

Results

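COPA, CCNI, GIPC1 and AZIN1 are human genes whose messenger RNA cells recode naturally by editing. All sites of the deposited table of shares that fall in GENCODE release 29 exons of these 4 genes were taken, which gave 571 sites of 382978 in all. COPA held 220 of them, CCNI 167, GIPC1 108 and AZIN1 76. All 571 were adenosines in the transcript, and each lay in exons of 1 gene alone.

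ADAR enzymes turn adenosine into inosine in double-stranded RNA, and inosine is read as guanosine by ribosomes and by sequencers. Natural ADAR1 and ADAR2 find their targets through double-stranded RNA binding domains that sit beside the catalytic deaminase domain, and the few recoding sites known in mammals lie in RNA that folds back on itself. COPA is the alpha subunit of the COPI coat, which returns vesicles from the Golgi to the endoplasmic reticulum. CCNI is cyclin I, an atypical cyclin. GIPC1 is a PDZ-domain adaptor that links membrane receptors to the motor protein myosin VI. AZIN1 binds antizyme and thereby spares ornithine decarboxylase, the first enzyme of polyamine synthesis. Their natural sites are COPA I164V, CCNI R75G, GIPC1 T62A and AZIN1 S367G, named by the amino acid encoded before and after editing.

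The cells were HEK 293T, a human embryonic kidney line, harvested 60 h after transfection, and each condition was 1 library of poly(A) RNA. MCP, the MS2 phage coat protein, carried a deaminase domain (DD) in 16 libraries, taken from either ADAR1 or ADAR2. These fusions had a nuclear export (NES) or nuclear localisation (NLS) signal and came without or with an MS2 adRNA, a guide with MS2 hairpins. Their domain was wild type or had glutamine in place of a glutamate (E1008Q in ADAR1, E488Q in ADAR2). Full-length ADAR2, wild type or E488Q, was expressed in 4 libraries with or without a GluR2 adRNA, and a fusion of Cas13b with ADAR2 DD (E488Q) in 2, with or without its gRNA. The 7 control runs held no deaminase: 3 were technical repeats of 1 library of untransfected cells, and 1 library each was of GFP, MS2 adRNA, GluR2 adRNA and gRNA. The exchange to glutamine is known to make the domain more active. Construct differences cannot be told apart from differences in the amount of protein made, and full-length ADAR2 differed from the MCP fusions in guide as well as in protein.

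The sequences around the recoding sites outside AZIN1 and around the silent site GIPC1 P32P are shown to place them. What part local sequence has in the results was not tested. Each runs 5′ to 3′ on the minus strand of GRCh38, taken from GENCODE transcripts and kept inside its exon, with the edited adenosine in capitals. COPA I164V lies in exon 6 of 33, 6 bases before the exon's end, at chr1:160332448-160332464. COPA K318R lies in exon 11 at chr1:160311981-160312001. CCNI R75G lies in exon 3 of 7 at chr4:77058517-77058537, and CCNI K274R in exon 7 at chr4:77048522-77048542. GIPC1 T62A and the silent site P32P lie in exon 4 of 9 at chr19:14482783-14482803 and chr19:14482871-14482891.
COPA I164V: cgtttgggatAtttctg
CCNI R75G: tcttttggatAggtttttagc
GIPC1 T62A: cgtgttccacAcccagctggc
GIPC1 P32P: tgggggagccAgggcctctgg
COPA K318R: attgtgtttaAgctggaacgg
CCNI K274R: acctgtgacaAaggagtgttc

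COPA K318R and CCNI K274R are not among the natural sites and were taken because their shares were high in earlier results of these data. AZIN1 S367G lies in exon 11 of 12 at position 102829408 of chromosome 8. In the controls the natural sites were nearly unedited. The share of reads with G at COPA I164V ran from 0% to 1.51% over the 7 control runs, at CCNI R75G from 0% to 0.952%, at GIPC1 T62A from 0% to 0.581% and at AZIN1 S367G from 0% to 2.04%. COPA K318R was at 0% in all 7, and CCNI K274R reached 0.257%. A site is called edited here when the authors' deposited table gives it an adjusted p under 0.01 in a library and its share lies above the untransfected mean. None of the 571 sites was called in a control, where at most 0.00601% of all sites were. Read depth is unknown, so no share has a counting interval, and errors below are standard deviations (SD) over libraries with different constructs.

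**Figure D1:**
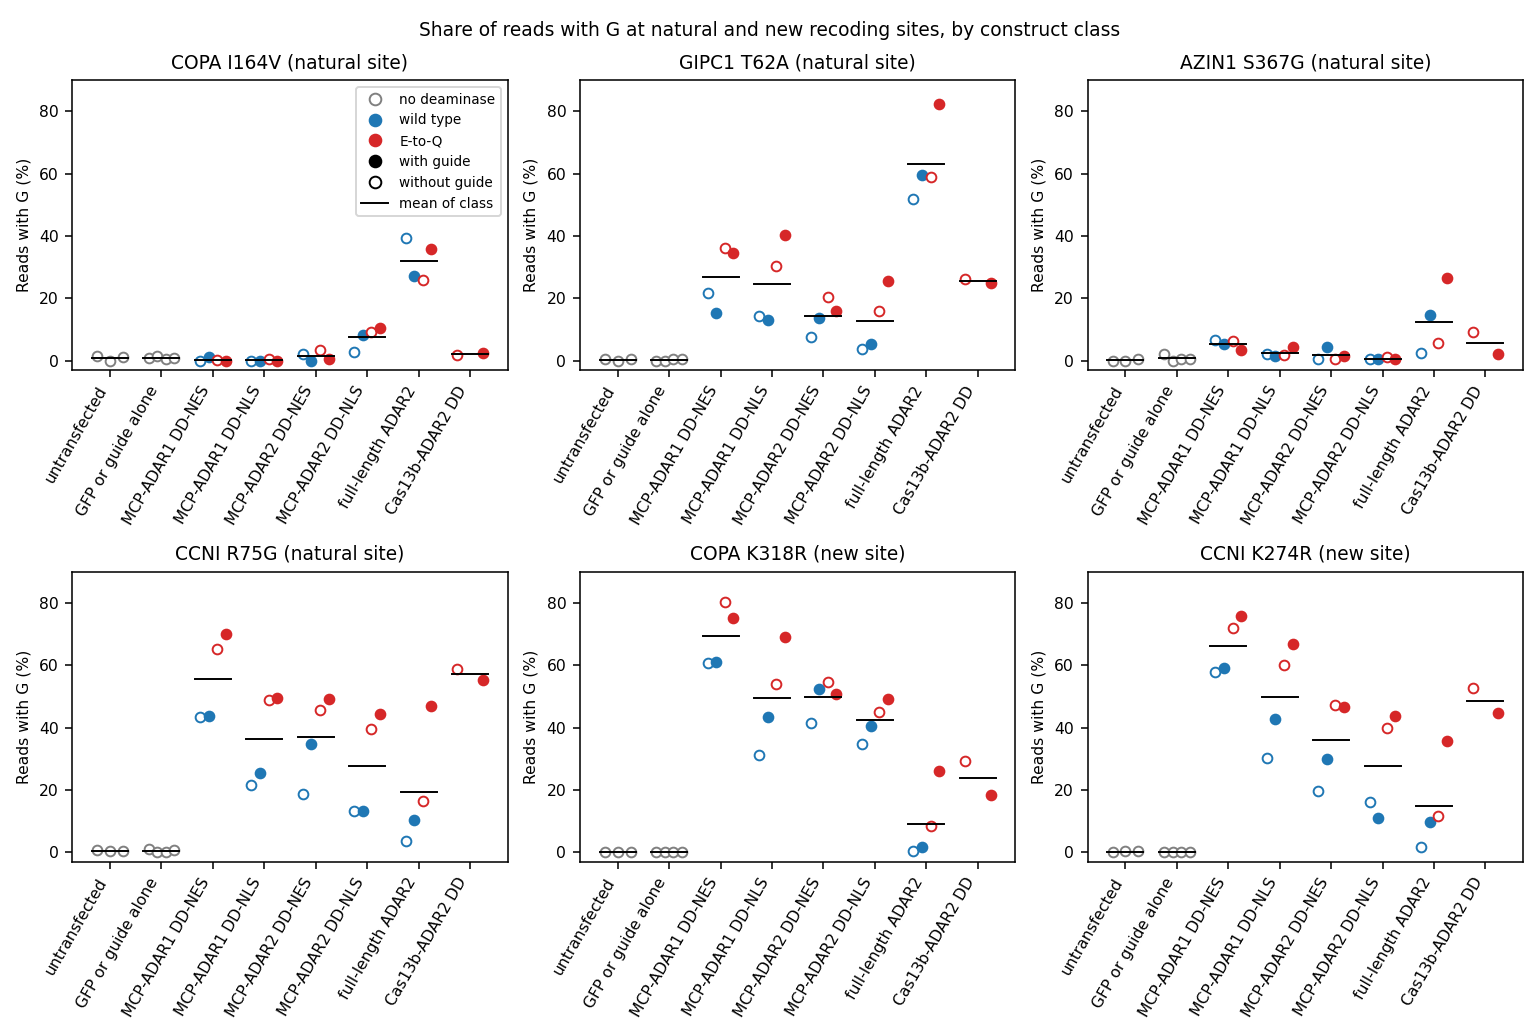
Share of reads with G (%) in each library at the 4 natural sites and 2 new sites, by construct class. Blue is wild type, red the E-to-Q exchange and grey no deaminase, and bars are class means. Filled points are deaminase libraries with a guide, and all control points are open, also those of a guide alone. COPA I164V was at 25.8% to 39.5% in full-length ADAR2 and at most 10.4% in every other library, while COPA K318R was lowest in full-length ADAR2 among the deaminase classes.

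COPA I164V was edited most by full-length ADAR2, and the other constructs gave at most 10.4%, reached with MCP-ADAR2 DD-NLS. Its share was 39.5% with wild-type ADAR2 alone, 27.3% with wild-type ADAR2 and guide, 25.8% with E488Q alone and 35.9% with E488Q and guide. The 8 MCP-ADAR2 libraries ran from 0% to 10.4% with a median of 3.17%, and the groups did not overlap. The means were 32.1% ± 6.61 (SD, n = 4) and 4.62% ± 4.06 (SD, n = 8), a difference of 27.5 points. The limma adjusted p was 0.000534 and the two-sided exact permutation p was 0.00202, the smallest that 4 against 8 libraries allow, with an adjusted p over all sites of 0.0347. With MCP-ADAR1 the site stayed between 0% and 1.28% in 8 libraries, within the range of the controls, and the Cas13b fusion gave 2.00% and 2.41%. By the authors' deposited table it was called in 6 libraries, the 4 with full-length ADAR2 and the 2 with MCP-ADAR2 DD (E488Q)-NLS.

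GIPC1 T62A was likewise highest with full-length ADAR2, but it was called in 21 of the 22 deaminase libraries, all but wild-type MCP-ADAR2 DD-NLS without guide. The full-length libraries were at 51.9% (wild type alone), 59.7% (wild type with guide), 58.9% (E488Q alone) and 82.5% (E488Q with guide). MCP-ADAR2 ran from 3.85% to 25.8% with a median of 14.8%, so the lowest full-length value was above the highest fusion value. The means of 63.2% ± 13.3 (SD, n = 4) and 13.6% ± 7.55 (SD, n = 8) differed by 49.6 points, with a limma adjusted p of 0.000162 and an exact permutation adjusted p of 0.0347. Unlike I164V, T62A was also well edited by MCP-ADAR1, from 13.0% to 40.3% with a median of 26.1%. The Cas13b libraries were at 26.2% and 25.0%.

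AZIN1 S367G had lower mean shares than the other natural sites with full-length ADAR2 and MCP-ADAR2, but not with MCP-ADAR1, where its mean of 4.05% was above the 0.297% of COPA I164V. Full-length ADAR2 gave 2.63% (wild type alone), 14.7% (wild type with guide), 5.67% (E488Q alone) and 26.5% (E488Q with guide). The 2 libraries with the GluR2 adRNA were high and the 2 without it low, and the lowest overlapped MCP-ADAR2, which ran from 0.546% to 4.47% with a median of 0.649%. The means were 12.4% ± 10.7 (SD, n = 4) and 1.27% ± 1.34 (SD, n = 8). The limma adjusted p for this difference was 0.0273, whereas the exact permutation p of 0.00404 had an adjusted p of 0.0543. The limma call was lost without the wild-type library with guide (adjusted p = 0.0762) or without the E488Q library with guide (adjusted p = 0.0840).

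CCNI R75G had a lower mean with full-length ADAR2, but the difference did not pass either test as fitted. It was the only one of the 571 sites called in all 22 deaminase libraries, where 0.13% of all listed sites were. Full-length ADAR2 gave 3.53% (wild type alone), 10.4% (wild type with guide), 16.5% (E488Q alone) and 46.9% (E488Q with guide), a wide range that overlapped the 13.2% to 49.1% of MCP-ADAR2 (median 37.2%). The mean was 19.3% ± 19.1 (SD, n = 4) against 32.3% ± 15.0 (SD, n = 8), with a limma adjusted p of 0.0552 and an exact permutation adjusted p of 0.488. The limma call depended on the setting: the adjusted p was 0.0149 without the E488Q library with guide, 0.0391 against MCP-NES alone, 0.0477 on logit shares, 0.0395 without the intensity trend and 0.0390 with a filter on low shares. Its highest values came from MCP-ADAR1 DD (E1008Q)-NES, at 65.3% without and 70.1% with guide, and the Cas13b libraries were at 58.8% and 55.4%.

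The new sites had lower means with full-length ADAR2. They had been taken for high shares in these same data, where 16 of the 22 deaminase libraries were MCP fusions. Their p-values and their contrast with the natural sites are therefore not independent of that choice and are given as a description. COPA K318R was at 0.538% and 1.58% with wild-type ADAR2 without and with guide, and at 8.33% and 25.9% with E488Q. All 4 were below the 34.6% to 54.6% of MCP-ADAR2 (median 47.1%). The means of 9.10% ± 11.7 (SD, n = 4) and 46.1% ± 6.85 (SD, n = 8) gave a limma adjusted p of 0.000827 and an exact permutation adjusted p of 0.0347. The exact calls of I164V, T62A and K318R were lost whenever 1 full-length library was left out (adjusted p from 0.0559 to 0.0936), where 0.00606 is the smallest p that 3 against 8 libraries allow. CCNI K274R was at 1.74%, 9.56%, 11.7% and 35.7% in the same order of libraries, which overlapped the 10.9% to 47.2% of MCP-ADAR2. Its means were 14.7% ± 14.7 (SD, n = 4) and 31.8% ± 14.6 (SD, n = 8). The limma adjusted p was 0.0188, and the exact permutation adjusted p was 0.296. The limma call was lost without wild-type ADAR2 alone (adjusted p = 0.0568) or E488Q alone (adjusted p = 0.0657). It was also lost on untransformed shares (adjusted p = 0.0777) and against MCP-NLS alone (adjusted p = 0.109).

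Within COPA the order of the natural and the new site differed between constructs. I164V exceeded K318R in 4 of 4 full-length libraries, by 23.0 ± 12.4 points (SD), and in 0 of the 18 other deaminase libraries, where it was lower by between 15.9 and 80.0 points. Both sites sit in the same transcript. Within CCNI the separation was smaller. R75G was below K274R in all 8 MCP-ADAR1 libraries, above it in 4 of 8 MCP-ADAR2 libraries, and above it in 4 of 4 full-length libraries (by 4.63 ± 4.67 points, SD) and 2 of 2 Cas13b libraries.

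Across the 571 sites, 92 differed between full-length ADAR2 and MCP-ADAR2 DD by limma at an adjusted p under 0.05, or 16.1%, close to the 15.9% of all listed sites. Of these, 42 were higher with full-length ADAR2 and 50 lower, where 10.4% of all sites were higher and 5.56% lower. The balance moved with the libraries and the scale: it was 41 higher and 25 lower without E488Q alone, 32 and 19 against MCP-NLS alone, and 13 and 10 on untransformed shares. The exact permutation test on untransformed shares called 29 of the 571, or 27 higher and 2 lower, where 5.83% of all sites were called. Only its smallest p of 0.00202 passed, since a p of 0.00404 had an adjusted p of 0.0543. With groups of unequal size and an absolute difference of means, complete separation below need not reach that smallest p. It was reached at all 27 sites with complete separation above, but at 2 of the 18 below. This split therefore does not measure the balance of directions, and it was not counted over all sites. By limma, COPA had 6 higher and 22 lower of 220 sites, CCNI 9 and 23 of 167, GIPC1 11 and 5 of 108, and AZIN1 16 and 0 of 76. The median estimate on the arcsine square root scale was -0.030 in COPA, -0.0074 in CCNI, 0.0072 in GIPC1 and 0.037 in AZIN1, against 0 over all sites. Every full-length library was above every MCP-ADAR2 library at 27 of the 571 sites and below at 18, where the shares over all sites were 5.47% and 1.73%. Of the 66 sites that turn lysine into arginine, 1 was higher and 9 were lower with full-length ADAR2.

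**Figure D2:**
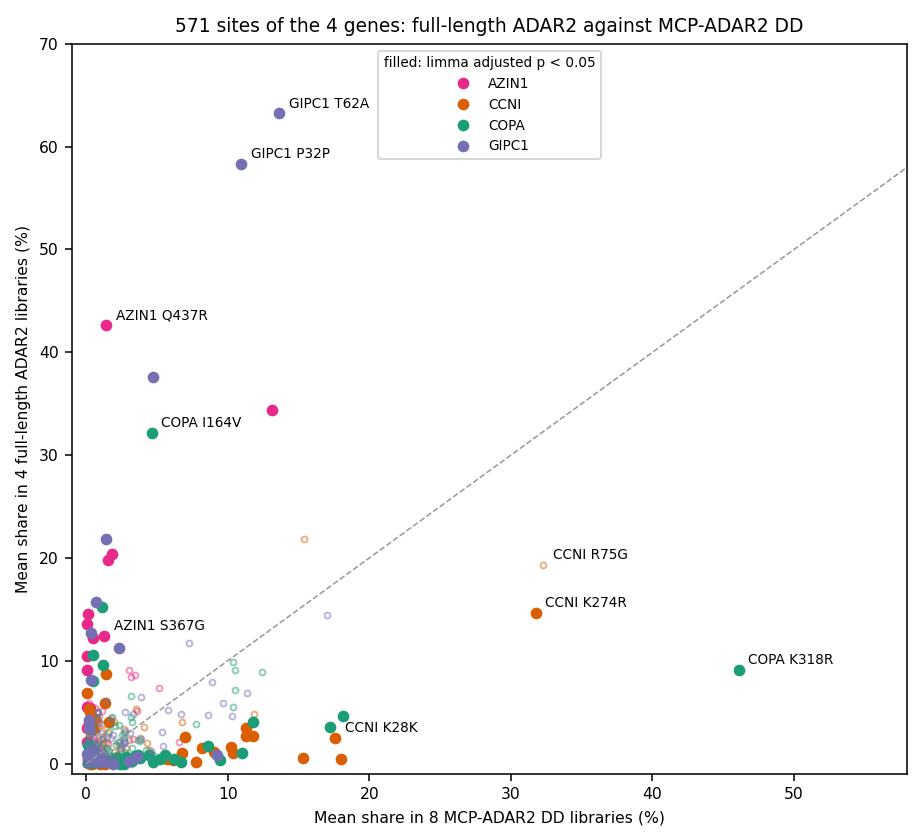
Mean share of reads with G (%) in the 4 full-length ADAR2 libraries (vertical) against the 8 MCP-ADAR2 DD libraries (horizontal), 1 point per site, coloured by gene and filled where the limma adjusted p was under 0.05; the dashed line marks equal values. GIPC1 T62A and P32P, AZIN1 Q437R and COPA I164V lie far above the line, and COPA K318R lies far below it at 46.1% against 9.10%.

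In GIPC1 the higher sites were in exon 4, with 5 of 13 sites higher and 2 lower, exon 9, with 5 of 53 higher and 3 lower, and exon 8, with 1 of 7 higher. Over all listed sites 10.4% were higher and 5.56% lower, and exons were not tested against each other. The higher sites described here lie in exon 4. P32P, which leaves the protein unchanged, was at 46.0%, 51.4%, 62.3% and 73.5% in the full-length libraries (wild type without and with guide, then E488Q without and with guide) and between 3.65% and 21.0% in MCP-ADAR2 (median 9.42%). Its mean of 58.3% ± 12.2 (SD, n = 4) against 11.0% ± 5.92 (SD, n = 8) had a limma adjusted p of 0.000201, and the groups did not overlap. P32P was already at 2.37% in the untransfected runs, above the 0.347% of T62A. The silent site G37G was at 14.3%, 21.3%, 49.0% and 65.7% with full-length ADAR2, against a mean of 4.73% with MCP-ADAR2 (limma adjusted p = 0.00089). H61R, 2 bases before T62A in the transcript, was at 13.0%, 10.8%, 16.8% and 46.8%, against a mean of 1.41% (limma adjusted p = 0.00267).

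A fold of the 201 bases around T62A, computed with RNAfold, paired P32P with a base 102 positions downstream and G37G with one 62 positions downstream. H61R was paired with a base 6 positions upstream, and T62A itself was unpaired. Pairing probabilities came from a separate calculation, RNAplfold along the spliced transcript with a window of 200 bases and pairs spanning at most 150. By it T62A had a pairing probability of 0.301. Spliced sequence was used, so pairing with introns was not covered. COPA I164V was paired in its own 201-base window (probability 0.751), as was Q157R nearby (0.958), whereas COPA E147E was unpaired (0.127). Q157R averaged 8.01% ± 7.22 (SD, n = 4) with full-length ADAR2 against 0.50% ± 0.453 (SD, n = 8) with MCP-ADAR2 (limma adjusted p = 0.0124), although its 4 full-length values ran from 0.649% to 17.7%. E147E went down, from 8.60% to 1.69% (limma adjusted p = 0.0112). Other sites of this window were paired but not called: H134R (probability 0.988), T158A (0.884) and D156G (0.803), with limma adjusted p of 0.454, 0.0507 and 0.125. Around AZIN1 S367G, the unpaired N374D and I380V were higher with full-length ADAR2 (limma adjusted p = 0.00283 and 0.0310). The paired S367G and E366E were higher too (0.0273 and 0.0182). In their own windows CCNI R75G and K274R were unpaired, and COPA K318R and AZIN1 S367G were paired. Their pairing probabilities were 0.071, 0.053, 0.232 and 0.548 in this order. Over each gene, the median pairing probability of sites higher against lower with full-length ADAR2 was 0.529 against 0.264 in GIPC1, 0.213 against 0.333 in COPA and 0.354 against 0.427 in CCNI, so the order was not the same in every gene.

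**Figure D3:**
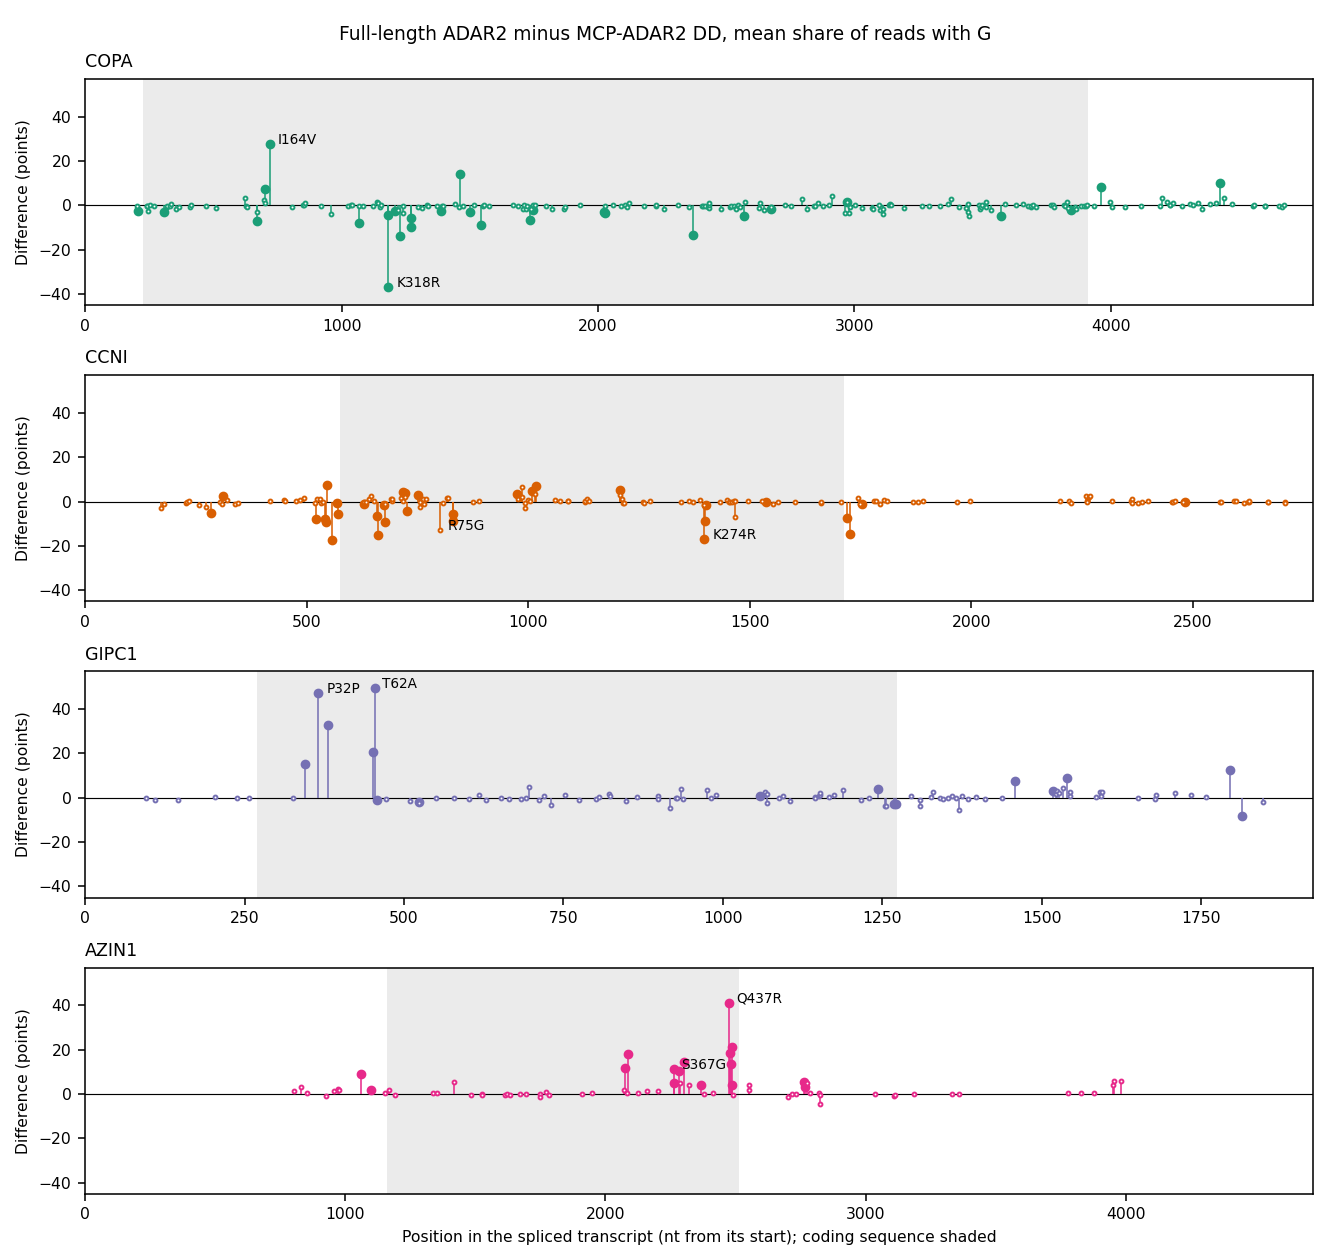
Difference in mean share between full-length ADAR2 and MCP-ADAR2 DD (percentage points) at each site along the spliced transcripts, in bases from the transcript start, with the coding sequence shaded; filled points had a limma adjusted p under 0.05. The GIPC1 differences of 47.4 points at P32P and 49.6 points at T62A stand close together, and AZIN1 has no filled point below 0.

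In AZIN1 most of the higher sites fell in exons 10, 11 and 12, with 2 of 6, 5 of 9 and 7 of 31 sites, and exons 2 and 3 held 1 each. Over all listed sites 10.4% were higher, and exons were not tested against each other. Q437R near the end of the coding sequence was far above the natural site: it was at 28.03%, 49.2%, 31.1% and 62.1% with full-length ADAR2 and between 0% and 3.80% with MCP-ADAR2. The mean of 42.6% ± 16.0 (SD, n = 4) against 1.42% ± 1.17 (SD, n = 8) had a limma adjusted p of 0.000333, and the controls were at 0%. MCP-ADAR1 left Q437R at 0% to 2.31%, and the Cas13b libraries were at 13.3% and 5.92%. D308G was at 7.64%, 26.2%, 12.9% and 32.4% with full-length ADAR2 against a mean of 1.52% (limma adjusted p = 0.00228). E441E, silent and 13 bases downstream of Q437R, was at 34.4% ± 19.5 (SD, n = 4) against 13.1% ± 7.16 (SD, n = 8), with a limma adjusted p of 0.0265, and its Cas13b values of 44.1% and 27.1% were as high.

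In CCNI exon 2 had 10 of 19 sites lower and 1 higher, and exon 7 had 8 of 74 lower and 0 higher. Over all listed sites 5.56% were lower and 10.4% higher, and exons were not tested against each other. The 5′ UTR site at position 77066382 was at 0.299%, 0.529%, 0.452% and 0.571% with full-length ADAR2, close to the 0.340% of untransfected cells. It ran from 5.03% to 30.7% in MCP-ADAR2 and was at 19.0% and 15.5% in the Cas13b libraries (limma adjusted p = 0.000773). The 3′ UTR site at position 77048204 averaged 0.557% ± 0.718 (SD, n = 4) against 15.3% ± 7.57 (SD, n = 8) (limma adjusted p = 0.000679). The silent site K28K fell from 17.6% to 2.52% (limma adjusted p = 0.0028). COPA showed the same direction in exon 11, where 6 of 10 sites were lower, among them L333L at 3.52% against 17.2% (limma adjusted p = 0.00441).

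The ADAR1 domain edited most of these sites more than the ADAR2 domain. Limma on the 16 MCP libraries called 411 of the 571 sites, 388 higher with ADAR1 and 23 higher with ADAR2, where 68.6% of all sites were called, 66% higher with ADAR1 and 2.6% higher with ADAR2. The exact sign-flip test called 315 of the 571, where 49.3% of all sites were. COPA I164V was among the 23: the ADAR2 domain exceeded the ADAR1 domain in 7 of 8 matched pairs, by 4.33 ± 4.21 points (SD), with an exact sign-flip adjusted p of 0.0476 and a limma adjusted p of 0.00338. The limma call held from NLS libraries alone (adjusted p = 0.0163) and was lost from NES libraries alone (0.281), where the estimate fell from 0.16 to 0.059 on the arcsine square root scale. The other natural sites were lower with the ADAR2 domain in 8 of 8 pairs, CCNI R75G by 13.7 ± 7.09, GIPC1 T62A by 12.1 ± 5.49 and AZIN1 S367G by 2.78 ± 2.2 points (SD; exact sign-flip adjusted p = 0.0256 for each). From NLS libraries alone the limma call was lost at CCNI R75G (adjusted p = 0.0622) and AZIN1 S367G (0.0975) and held at GIPC1 T62A (0.0257). CCNI K274R was lower with the ADAR2 domain in 8 of 8 pairs, by 26.3 ± 7.51 points. COPA K318R was lower in 7 of 8, by 13.3 ± 10.6 points (exact sign-flip adjusted p = 0.0476). The limma call of K318R was lost from NLS libraries alone (adjusted p = 0.310).

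Some sites were edited by the ADAR1 domain and much less by the ADAR2 constructs given here. AZIN1 Y321C, in exon 10, ran from 22.9% to 53.7% over 8 MCP-ADAR1 libraries, from 0% to 2.25% over 8 MCP-ADAR2 libraries and from 0% to 2.78% in full-length ADAR2 (limma adjusted p for the enzyme = 6.18e-07). The COPA 3′ UTR site at position 160289706 ran from 27.6% to 77.5% with MCP-ADAR1 and from 0% to 8.47% with MCP-ADAR2, and full-length ADAR2 reached 0.752% (limma adjusted p = 1.21e-06). There the Cas13b libraries were at 0.599% and 3.64%, and the controls reached 1.38%. CCNI V325V averaged 37.8% with MCP-ADAR1 DD-NES and 1.44% with MCP-ADAR2 DD-NES (limma adjusted p = 8.76e-07). GIPC1 E19G averaged 19.6% and 0.276% in the same classes (limma adjusted p = 2.24e-05). At CCNI V325V full-length ADAR2 reached 0.510% and the Cas13b libraries 2.54%.

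**Figure D4:**
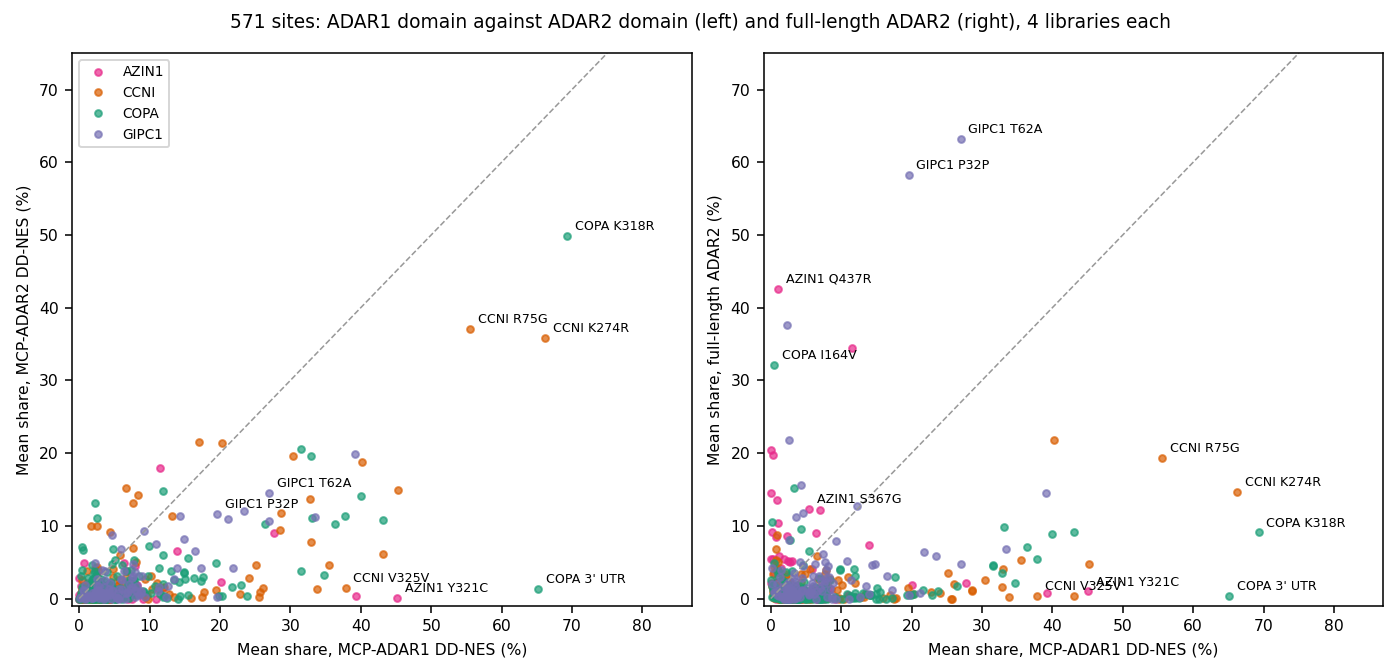
Mean share of reads with G (%) at the 571 sites in the 4 MCP-ADAR1 DD-NES libraries (horizontal) against the 4 MCP-ADAR2 DD-NES libraries (left) and the 4 full-length ADAR2 libraries (right), coloured by gene, with dashed lines at equal values. The COPA 3′ UTR site at 65.2% with the ADAR1 domain and AZIN1 Y321C at 45.1% lie near 0 on both vertical axes, while COPA I164V and AZIN1 Q437R rise in the right panel alone.

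The exchange to glutamine raised editing at 249 of the 571 sites by limma and lowered it at 6, or 255 in all, where 40.4% of all sites were called, 39.7% higher and 0.72% lower. The exact sign-flip test called 234 of the 571, where 36.1% of all sites were. CCNI R75G was higher in 10 of 10 matched pairs, by 24.8 ± 7.06 points (SD), and GIPC1 T62A in 10 of 10, by 15.4 ± 7.45 points (exact sign-flip adjusted p = 0.0179 for each). COPA K318R was higher in 9 of 10 pairs, by 14.5 ± 8.68 points (exact sign-flip adjusted p = 0.0203), and CCNI K274R in 10 of 10, by 22.1 ± 7.45 points (0.0179). The K318R call was lost on MCP pairs alone (14.1 points, adjusted p = 0.0559) and, by limma, from NES (0.138) or NLS (0.0707) libraries alone. The limma call of GIPC1 T62A was also lost from NES libraries alone (adjusted p = 0.0665). The other natural sites showed no detectable difference: COPA I164V moved by 0.485 ± 5.82 points (exact sign-flip adjusted p = 0.826) and AZIN1 S367G by 1.28 ± 4.10 points (0.506). Per site and construct the pairs varied widely, and at I164V they ran from -13.7 to 8.54 points, with the lowest in full-length ADAR2 without guide.

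By limma on arcsine square root shares, the nuclear signal lowered editing at some sites. It called 36 of the 571, all lower with NLS than with NES, where 3.76% of all sites were lower and 0.0397% higher (3.8% in all), and 22 of the 36 were in CCNI. Limma on untransformed shares called 0 of them (195 at an unadjusted p under 0.05), and the exact sign-flip test called 0 of the 571 and 0% of all sites. CCNI R75G was lower in 8 of 8 pairs by 14.3 ± 7.56 points (SD; limma adjusted p = 0.0219), COPA K318R in 8 of 8 by 13.7 ± 9.97 points (limma adjusted p = 0.0456) and CCNI K274R in 8 of 8 by 12.3 ± 8.46 points (limma adjusted p = 0.0338). The exact sign-flip p of 0.00781 at each was the smallest that 8 pairs allow and did not pass after adjustment (0.164). COPA I164V did not show this direction. Its shares in MCP-ADAR2 DD-NLS were 2.88% and 8.39% (wild type) and 9.09% and 10.4% (E488Q), without and with guide, above the 2.14%, 0%, 3.45% and 0.625% of the NES forms, but over all 8 pairs the difference of 2.94 ± 4.33 points did not pass (limma adjusted p = 0.214).

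The MS2 adRNA changed none of the 571 sites by limma after adjustment, where 0.000783% of all sites were called, and 16 sites had an unadjusted p under 0.05. CCNI R75G was higher with a guide in 10 of 11 pairs of all constructs, by 6.18 ± 9.48 points (SD; exact sign-flip p = 0.00879, adjusted p = 1). For full-length ADAR2, the mean share over the 571 sites was 0.802% without and 1.55% with the GluR2 adRNA for wild type, and 1.58% and 5.14% for E488Q. The mean over all listed sites moved the same way, from 1.18% to 2.15% and from 2.78% to 8.03%, and what part this has in the differences of single sites was not tested.

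The number of the 571 sites called, by the authors' deposited table, ran from 11 with wild-type MCP-ADAR2 DD-NLS and with wild-type full-length ADAR2, both without guide, to 383 with MCP-ADAR1 DD (E1008Q)-NES without guide. In these libraries 0.982%, 1.5% and 59.2% of all listed sites were called. Of the 571, 134 were called in exactly 1 deaminase library and 69 in at least 11. These counts were not made over all listed sites, so whether they differ from the table at large is unknown. After CCNI R75G with 22, the most often called were GIPC1 T62A and CCNI K274R with 21 each. In the E488Q full-length library with guide, 44.7% of the AZIN1 sites and 21.8% of the COPA sites were called, against 32.7% of all sites. The library with the most calls, MCP-ADAR1 DD (E1008Q)-NES alone, had the opposite order, with 39.5% of AZIN1 and 69.1% of COPA sites called.

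By position, 378 of the 571 sites lay in coding sequence, 139 in 3′ UTRs, 51 in 5′ UTRs and 3 in stop codons. Editing leaves the amino acid unchanged at 104 of the coding sites and changes it at the others. The listed sites made up 17.7% of the adenosines in the COPA transcript, 23.1% in CCNI, 30.9% in GIPC1 and 5.94% in AZIN1. A guanosine followed 51.1% of the listed adenosines against 26.4% of all adenosines of the 4 transcripts, and a guanosine preceded 14.4% against 25.4%. Both are known features of ADAR substrates. All 571 sites were called in at least 1 deaminase library, as were 382863 of the 382978 listed sites (100% after rounding), so the table describes edited sites. What part read depth has in the number of sites per gene was not tested.

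The sites elsewhere in the transcriptome whose shares ran most like each natural site over the 22 deaminase libraries included, for COPA I164V, 1 in CXorf56 (Pearson r = 0.979), and for GIPC1 T62A, those in GPS1 (0.980) and ATP13A1 (0.970). For CCNI R75G the closest site in a single gene was in PPP1CA (0.978), and for AZIN1 S367G it was in DGCR8 (0.974). These are among the highest of 244099 candidate sites in the same libraries and are given as a description. Among the 6 sites, CCNI R75G and K274R ran most alike (r = 0.918), and COPA I164V and K318R ran in opposite directions (r = -0.722).

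The same comparison was counted in other lists of genes, beside the 10.4% higher and 5.56% lower over all sites. Among 15 other known recoded genes, 7 had listed sites, and of their 803 sites 30 were higher and 205 lower with full-length ADAR2 than with MCP-ADAR2 DD. In 7 other COPI coat genes 11 of 564 sites were higher and 46 lower. In 8 genes of polyamine regulation 18 of 527 were higher and 15 lower, and in 19 cyclins 95 of 767 were higher and 27 lower. In the GIPC family and its partner, 1 gene had listed sites, and 0 of 11 were higher and 1 lower. The median estimates on the arcsine square root scale were -0.062 for the recoded genes, -0.018 for the COPI coat and 0.021 for the cyclins, beside 0 over all sites.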

How the data were processed

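The labels describe HEK 293T poly(A) RNA, libraries from 300 ng of RNA and paired 100 bp reads. Tools named in the submitters' processing notes are STAR 2.6.0c, SAMtools and bcl2fastq 2.18.0.12, with the build GRCh38.p12, and their settings were not given in the sources used here. Going by headers and value ranges, the authors deposited a fraction of reads with the edited base (share) at each site and library, without read counts. They also deposited an adjusted p-value per site and library, with no statement of its test or reference. Depth is therefore unknown. In the table of shares 1 column had no name and was not used, so untransfected cells are runs 2, 3 and 4.

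Sites were placed on GENCODE release 29. Shares were transformed to the arcsine square root and fitted with limma 3.58.1 with an intensity trend, adjusted by Benjamini-Hochberg over all 382978 sites at a threshold of 0.05. The MCP fit held 16 libraries (enzyme, variant, localisation, guide; 11 residual degrees of freedom), and the ADAR2 fit 14 (carrier, variant, guide; 8), testing full-length minus the mean of MCP-NES and MCP-NLS. Single sites were also tested by two-sided exact permutation of 4 against 8 libraries (absolute difference of means) and by exact sign flips of matched pairs, adjusted over all sites. Tests were checked on simulated data. Constructs are the units and share plasmids, so p-values describe this set of libraries. Folding used ViennaRNA 2.7.2. Named sites were the natural and 2 new sites, per gene the 3 others with the highest mean share and up to 2 with the smallest limma adjusted p per contrast; H61R, G37G, Q157R and other neighbours were named after their values were seen. Members and lists were chosen with earlier results of these data known. Alternatives covered transformation, trend, interaction, a filter on low shares and left-out libraries.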

Additional observations from a re-analysis of the deposited data

Results flagged for a closer look

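COPA I164V in MCP-ADAR1 DD (E1008Q)-NLS without MS2 adRNA had a share of 0.680%, while the other 3 MCP-ADAR1 DD-NLS libraries were at 0%. Dixon's criterion for 4 samples marked the value, but with the other 3 at 0% it marks any value above 0%, however small. The value is below the highest control value of 1.51%. In all, 30 groups were checked, and the usual rate of about 1 in 20 marked by chance does not hold for values tied at 0%.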

How the results depend on the processing

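No paired analysis was possible because the labels number only the untransfected runs, so no replicate number pairs the groups; the sign-flip tests pair constructs that differ in 1 factor. The 571-site counts moved by over 1.5 times in these settings. For the enzyme, 103 sites were called from NLS libraries alone against 411. For the exchange to glutamine, 78 were called from NES libraries alone and 112 from NLS libraries alone against 255. For NLS against NES, 0 were called on untransformed shares (195 at an unadjusted p under 0.05) and 58 with an enzyme by variant interaction against 36. For full-length ADAR2 against MCP-ADAR2, 23 were called on untransformed shares and 51 against MCP-NLS alone, against 92. Leaving out 1 full-length library moved this total by less than 1.5 times, to between 66 and 90, but lower calls fell from 50 to 25 without E488Q alone. Directions changed only where neither direction passed: AZIN1 S367G for E-to-Q (limma from NLS libraries alone, 0.028; exact test on MCP pairs alone, -0.248 points), COPA I164V for the guide (limma on untransformed shares 0.00256 and from NLS libraries alone 0.0158; exact test on the arcsine scale -0.0135) and GIPC1 T62A for the guide (limma from NES libraries alone, -0.0149). The exact test of full-length against MCP-ADAR2 lost its call against MCP-NLS alone at COPA I164V (24.4 points), GIPC1 T62A (50.5 points) and COPA K318R (-33.2 points; adjusted p = 0.293 at each), where the smallest p of 8 libraries is 0.0286. Leaving out 1 full-length library gave 25.0 to 29.6 points at I164V, 43.2 to 53.4 points at T62A and -42.6 to -34.1 points at K318R, with adjusted p from 0.0559 to 0.0936, since 0.00606 is then the smallest p. AZIN1 S367G passed this test on the arcsine scale (0.231, adjusted p = 0.0475). The limma calls of I164V, T62A and K318R for this comparison held in all 11 alternatives run. S367G lost its limma call on untransformed shares (adjusted p = 0.0939) and against MCP-NES (0.0740) or MCP-NLS (0.0516) alone. With no replicate library and no depth, small differences at single sites in single libraries cannot be resolved.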
